A study of Mus musculus with 4 samples.

Results

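The rod fate network around *Nr2e3* was taken here as 10 transcription regulators, chosen by their known roles: *Nr2e3*, *Nrl*, *Crx*, *Otx2*, *Rorb*, *Neurod1*, *Esrrb*, *Mef2d*, *Prdm1* and *Rb1*. All 10 symbols were found among the 22095 loci with deposited values, and all 10 passed the filter on low values that left 12655 genes for testing. At 3 weeks of age, 7 of the 10 were higher in *rd7* retinas (*Nr2e3*, *Prdm1*, *Rb1*, *Otx2*, *Rorb*, *Mef2d* and *Crx*). Another 2 were lower (*Nrl* and *Esrrb*), and *Neurod1* was not called. The shares among all genes tested were 37.6% higher and 8.8% lower. The call of *Crx* depended on how the values were scaled, and that of *Rorb* was lost with a correction for GC content and length. *Neurod1* was called lower with that correction and when libraries were scaled by median ratios. *Nrl* and *Esrrb* kept their direction under all alternatives, but their calls depended on the WT libraries kept. *Nr2e3* was 5.24-fold higher and *Prdm1* 2.49-fold higher, whereas the other called regulators lay between 0.666 and 1.51 times their WT level.

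In the vertebrate retina, OTX2 commits precursor cells to the photoreceptor fate and CRX drives the genes shared by rods and cones. RORB acts upstream of NRL, a leucine zipper factor of the Maf family without which the cells that would become rods become cones. NRL turns on *Nr2e3*, the gene of an orphan nuclear receptor that works with CRX and NRL on rod genes and holds down cone genes in rods. NEUROD1, MEF2D and the estrogen-related receptor ESRRB act in photoreceptor maintenance, PRDM1 (also called BLIMP1) steers precursors away from the bipolar fate, and RB1 is the retinoblastoma protein of cell cycle exit.

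The libraries came from whole retinas, 2 from *rd7* mice and 2 from wild-type (WT) mice. The labels give the strain C57BL/6J and an age of 3 weeks for all 4 libraries, and differ between groups only in the genotype, Nr2e3 mutant or WT. The *rd7* allele, carried in all tissues, is known as an insertion of a LINE-1 element into an exon of *Nr2e3*. Each library pooled 8 retinas of 2 female and 2 male animals, so that a replicate is a pool and not an animal. Levels are FPKM, that is, fragment counts scaled to transcript length and library size, so that levels of different genes can be set side by side. The depth, estimated from the lowest FPKM on the assumption that they mark single reads, was 34900000 to 35600000 reads per library. On that estimate between 771 reads (*Prdm1*, WT replicate 1) and 297198 reads (*Nr2e3*, *rd7* replicate 1) lay behind the values of the 10 genes. These read numbers are rough. They use all exonic bases annotated in GENCODE, which for *Nr2e3* and *Prdm1* reach beyond the deposited loci, so they may be too high. Counting error is therefore small, and the number of pools limits the precision.

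Differences are log2 fold changes of FPKM + 0.1, *rd7* minus WT, tested with limma over all 12655 genes with Benjamini-Hochberg adjustment, and a gene is called at an FDR of 5%. Of all genes tested, 37.6% were called higher and 8.8% lower, against 7 and 2 of the 10 regulators. In 57.1% of all genes both *rd7* libraries lay above both WT libraries and in 19.5% below, which held for the same 7 and 2 regulators. The median log2 fold change was 0.48 over the 10 regulators and 0.15 over all genes. The balance of calls moved with scaling. Median-ratio scaling placed the median of all genes at -0.0049 and gave 50.1% of the calls as higher in place of 81.0%. Under that scaling 19.7% of all genes were called higher and 19.6% lower, and 6 regulators were higher and 3 lower. With quantile normalization 49.4% of the calls were higher, and 45.1% once GC content and length were corrected for.

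**Figure D1:**
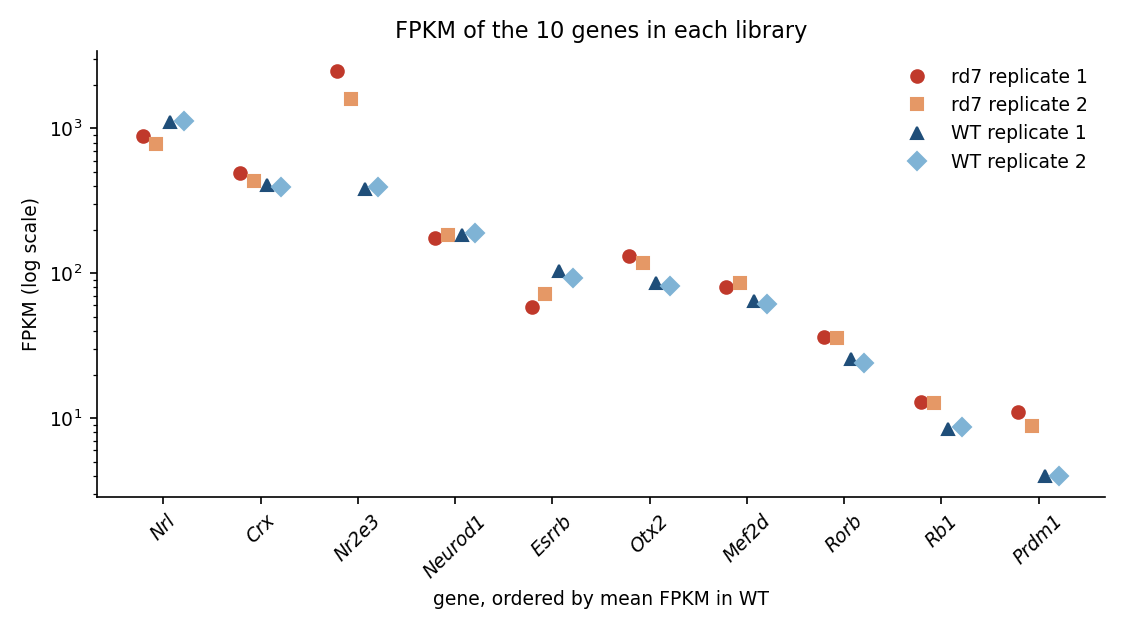
Deposited FPKM (log scale) of the 10 regulators in each of the 4 libraries, with circles and squares for *rd7* replicates 1 and 2 and triangles and diamonds for WT replicates 1 and 2. The *Nr2e3* points of the *rd7* libraries, at 2493 and 1589, stand above the WT points at 385 and 394, and the 4 points of *Neurod1* lie between 176 and 191.

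*Nr2e3* (chromosome 9, 59790578 to 59797886 in mm9, minus strand) reached an FPKM of 2493 and 1589 in *rd7*, compared with 385 and 394 in WT retinas. Both *rd7* values lay far above both WT values, and the *rd7* libraries stood apart from each other by 1.57-fold, compared with 1.02-fold for the WT libraries. The means were 2041 ± 639 and 389 ± 6.72 (SD, n = 2 each), a log2 fold change of 2.35 (SE 0.20, 95% interval 1.87 to 2.84, adjusted p = 0.0011 from limma). With this level *Nr2e3* held places 3 and 7 among all genes tested in the *rd7* libraries, and places 98 and 96 in the WT libraries. Of the 545 genes with a WT mean of at least 100 FPKM, 0 had a larger log2 fold change, while 40 of all genes tested did. Among these 40 was *Gnat2* (log2 fold change 3.17), whose WT mean of 90.6 FPKM lay just under that cut. FPKM counts reads on the locus whatever the splicing of the transcript, so the values of *Nr2e3* do not give the level of intact receptor.

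The promoter of *Nr2e3* is shown because it lies between *Nr2e3* and a second transcript that also rose. The 300 bases run from 250 before to 50 after the RefSeq start (GRCm38.p6, chr9:59950030-59950329, minus strand), and the same letters occur once in mm9, at chr9:59797837-59798136. Capitals here and in the sequences that follow mark letters of 6 motifs searched on both strands: TAATCC (bound by CRX and OTX2), TGCTGA (part of the NRL site), AAGTCA (NR2E3), AAGGTCA (ESRRB and RORB), CAGATG (NEUROD1) and CTATTTATA (MEF2 factors). The window of *Nr2e3* held none of them.
Nr2e3: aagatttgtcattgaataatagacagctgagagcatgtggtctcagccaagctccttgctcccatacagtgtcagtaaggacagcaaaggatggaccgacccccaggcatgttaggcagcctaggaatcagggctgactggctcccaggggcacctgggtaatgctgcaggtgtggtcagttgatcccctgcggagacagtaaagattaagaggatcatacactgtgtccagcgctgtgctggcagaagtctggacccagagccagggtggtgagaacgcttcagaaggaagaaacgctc

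Beyond this promoter, 1215 bases from the end of the *Nr2e3* locus, begins *Gm7616* (chromosome 9, 59799101 to 59806850 in mm9), which GENCODE annotates as an antisense transcript on the plus strand. Its FPKM was 32.8 and 26.8 in *rd7* and 9.29 and 11.0 in WT retinas. Both *rd7* libraries exceeded both WT libraries, by 2.93-fold in the means (29.8 ± 4.28 against 10.2 ± 1.23, SD, n = 2 each), a log2 fold change of 1.54 (SE 0.12, adjusted p = 0.000981 from limma). GENCODE places long forms of *Nr2e3* across *Gm7616*, up to base 59808466, but the exons of both share 0 bases. *Nr2e3* had 75.9 and 59.4 times the FPKM of *Gm7616* in the *rd7* libraries and 41.4 and 35.7 times in the WT libraries, so *Nr2e3* rose by the larger factor. Whether the libraries kept the strand of the RNA is not given in the sources used here.

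Among the 10 tested loci nearest to *Nr2e3*, 5 on each side and up to 844 kb away, 4 were higher and 1 was lower in *rd7*, beside 37.6% and 8.8% of all genes. *Myo9a*, an unconventional myosin gene 13.9 kb beyond the far end of *Nr2e3*, had a log2 fold change of 0.29 (adjusted p = 0.0122 from limma), which turned to -0.0921 after the GC and length correction. The call of *Myo9a* was also lost under median-ratio scaling (0.13), after quantile normalization (0.12) and without WT replicate 1 (0.28) or 2 (0.29). *Lrrc49* rose by 0.47 and *Parp6* by 0.21 on the log2 scale. The call of *Lrrc49* was lost with the GC and length correction (0.17), and that of *Parp6* under 7 alternatives, among them median-ratio scaling (0.06) and leaving out WT replicate 1 (0.20) or 2 (0.23). *Gramd2* was the lower one, with an FPKM of 3.79 and 8.28 in *rd7* against 18.6 and 15.8 in WT retinas, and its log2 fold change of -1.60 was -1.04 without *rd7* replicate 1 and -2.15 without *rd7* replicate 2. The call of *Gramd2* was lost with no filter on low values (adjusted p = 0.0588 from limma) and without WT replicate 1 (-1.48) or 2 (-1.71). The other 5 loci were not called, with log2 fold changes from -0.10 to 0.11.

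**Figure D2:**
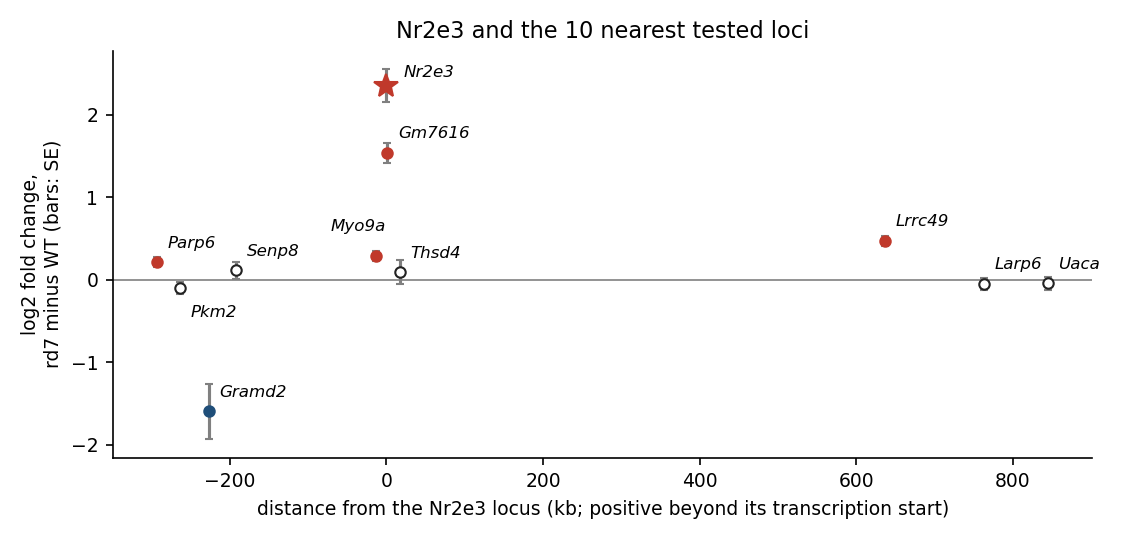
Log2 fold change (*rd7* minus WT, bars show the standard error) of *Nr2e3* (star) and the 10 nearest tested loci against the distance in kb from the *Nr2e3* locus, with filled points for called genes and open points for genes not called. *Nr2e3* at 2.35 and *Gm7616* at 1.54 stand above the other loci, of which *Lrrc49* is the highest at 0.47.

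*Nrl*, the gene of the factor that sets the rod fate, had an FPKM of 884 and 785 in *rd7* and of 1110 and 1124 in WT retinas. The 2 WT values were nearly equal and both lay above both *rd7* values. In the means *Nrl* was at 0.747 times its WT level (834 ± 69.9 against 1117 ± 10.3, SD, n = 2 each), a log2 fold change of -0.42 (SE 0.07, adjusted p = 0.00614 from limma). The direction was the same under median-ratio scaling (-0.58) and the GC and length correction (-0.48), and the call was lost when WT replicate 1 or 2 was left out (adjusted p = 0.0928 and 0.0853 from limma). *Nrl* lies on chromosome 14, from 56137815 to 56143802 in mm9.

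*Crx*, the gene of the homeodomain factor that works with NRL and NR2E3 (chromosome 7, 16451296 to 16465304), had an FPKM of 491 and 437 in *rd7* and of 405 and 395 in WT retinas. The groups did not overlap, and *rd7* replicate 1 was the highest of the 4. The log2 fold change of 0.21 (SE 0.07, adjusted p = 0.0486 from limma) stood just inside the threshold and close to the median of all genes. It was 0.06 under median-ratio scaling (adjusted p = 0.52 from limma) and 0.0064 with the GC and length correction (adjusted p = 0.951 from limma). In all, 7 of the 13 alternatives lost the call, among them leaving out WT replicate 1 (0.23) or 2 (0.19), and without *rd7* replicate 1 it was 0.13.

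The promoters of *Nrl* and *Crx* are shown because the 2 genes, which act together on rod genes, moved apart in *rd7* retinas. The window of *Nrl* lies on chromosome 14 (GRCm38.p6 chr14:55524203-55524502, minus strand, mm9 chr14:56143040-56143339) and holds 1 CAGATG. The whole window of *Nrl* lies inside the deposited locus, which ends at 56143802 in mm9, so it marks a start within that locus. That of *Crx* lies on chromosome 7 (GRCm38.p6 chr7:15879906-15880205, minus strand, mm9 chr7:16465255-16465554) and holds TAATCC at 2 places, read on the opposite strand as GGATTA. Of the 32851 promoter windows of this length in the RefSeq table, 7.06% hold TAATCC and 17.2% hold CAGATG.
Nrl: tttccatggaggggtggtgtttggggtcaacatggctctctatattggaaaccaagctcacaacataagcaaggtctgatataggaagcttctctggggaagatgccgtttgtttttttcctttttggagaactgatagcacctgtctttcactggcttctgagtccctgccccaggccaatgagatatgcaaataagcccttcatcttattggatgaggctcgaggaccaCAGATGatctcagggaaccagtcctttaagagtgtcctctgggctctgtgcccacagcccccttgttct
Crx: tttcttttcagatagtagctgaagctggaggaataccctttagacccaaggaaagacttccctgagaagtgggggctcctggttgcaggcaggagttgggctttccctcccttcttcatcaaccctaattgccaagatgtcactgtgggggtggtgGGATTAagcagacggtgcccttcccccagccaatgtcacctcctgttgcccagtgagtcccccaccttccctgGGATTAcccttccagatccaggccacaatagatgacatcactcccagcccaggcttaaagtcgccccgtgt

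*Esrrb*, the gene of an orphan nuclear receptor found in rods (chromosome 12, 87702067 to 87862577), had an FPKM of 58.4 and 72.0 in *rd7* and of 103 and 92.4 in WT retinas. The groups did not overlap, and *rd7* replicate 1 was the lowest library. *Esrrb* was at 0.666 times its WT level (65.2 ± 9.59 against 97.9 ± 7.69, SD, n = 2 each), a log2 fold change of -0.59 (SE 0.11, adjusted p = 0.00861 from limma). Without WT replicate 1 the value was -0.51 and the call was lost (adjusted p = 0.0766 from limma). Of all genes tested, 293 had a lower log2 fold change than *Esrrb* and 502 a lower one than *Nrl*. *Esrrb* has 2 windows in the RefSeq table, and the one at the start of the deposited locus (GRCm38.p6 chr12:86360867-86361166, plus strand, mm9 chr12:87701817-87702116) is shown because it is the only member window with the NR2E3 letters AAGTCA, which 15.1% of all windows hold.
Esrrb: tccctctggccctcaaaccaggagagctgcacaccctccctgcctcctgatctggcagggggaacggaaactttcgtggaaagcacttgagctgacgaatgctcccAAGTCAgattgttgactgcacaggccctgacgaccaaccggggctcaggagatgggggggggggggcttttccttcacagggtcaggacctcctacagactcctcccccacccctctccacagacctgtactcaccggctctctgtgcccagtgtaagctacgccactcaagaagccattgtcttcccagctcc

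*Otx2*, which acts above *Crx* (chromosome 14, 49277859 to 49282547), had an FPKM of 132 and 117 in *rd7* and of 86.2 and 82.1 in WT retinas. Both *rd7* libraries were above both WT libraries, a log2 fold change of 0.56 (SE 0.07, adjusted p = 0.00274 from limma) or 1.48-fold. *Rorb*, the nuclear receptor gene upstream of *Nrl* (chromosome 19, 19011058 to 19185686), had 36.4 and 35.9 against 25.6 and 24.0. The 2 *rd7* values were within 1.01-fold of each other, and the log2 fold change was 0.55 (SE 0.05, adjusted p = 0.00161 from limma). With the GC and length correction that of *Rorb* fell to 0.16 and was not called (adjusted p = 0.106 from limma), while *Otx2* stayed called at 0.31.

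*Prdm1* (chromosome 10, 44156981 to 44178493) was the lowest of the 10 genes in both genotypes and had the second largest rise. Its FPKM was 11.0 and 8.81 in *rd7* and 3.97 and 4.004 in WT retinas, so that each *rd7* library held more than 2 times the level of each WT library. The log2 fold change was 1.29 (SE 0.11, 95% interval 1.01 to 1.57, adjusted p = 0.00125 from limma), and it stayed between 1.00 and 1.31 under the 9 other fits of all libraries. The rise of *Prdm1* was exceeded by 130 of the 12655 genes.

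*Mef2d*, the gene of a MADS box factor that acts with CRX (chromosome 3, 87946317 to 87973089), had an FPKM of 80.8 and 86.4 in *rd7* and of 64.2 and 61.8 in WT retinas. The groups did not overlap, and the log2 fold change was 0.41 (SE 0.05, adjusted p = 0.00342 from limma), or 0.25 under median-ratio scaling and still called. *Rb1* (chromosome 14, 73595309 to 73725598) had 13.0 and 12.8 against 8.44 and 8.65, with library pairs equal to within 1.03-fold. Its log2 fold change of 0.59 (SE 0.06, adjusted p = 0.00143 from limma) was 0.21 with the GC and length correction and still called (adjusted p = 0.0339 from limma). Markers of dividing cells (*Mki67*, *Top2a*, *Ccnb1*, *Cdk1* and *Birc5*) were at low levels beside it, with none at a mean FPKM of 1 or more and a summed FPKM of 0.606 to 0.883 in *rd7* and 0.572 to 0.632 in WT retinas. Of these, *Mki67* had 0.0840 and 0.0826 in *rd7* against 0.0101 and 0.0158 in WT retinas, and *Top2a* 0.0838 and 0.0791 against 0.00915 and 0.0137. Both were higher in both *rd7* libraries, *Ccnb1*, *Cdk1* and *Birc5* overlapped between genotypes, and none of the 5 was tested. The part of dividing cells in the value of *Rb1* was not tested.

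*Neurod1*, the gene of a bHLH factor of photoreceptor survival (chromosome 2, 79292798 to 79296793), had an FPKM of 176 and 185 in *rd7* and of 184 and 191 in WT retinas. The groups overlapped, and the log2 fold change was -0.06 (SE 0.05, adjusted p = 0.402 from limma), with a 95% interval from -0.18 to 0.07 that allows levels between 0.880 and 1.05 times the WT level. Since the median of all genes was 0.15, this value depends on scaling, and *Neurod1* was called lower under median-ratio scaling (-0.21, adjusted p = 0.0248 from limma) and with the GC and length correction (-0.36, adjusted p = 0.00776 from limma).

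**Figure D3:**
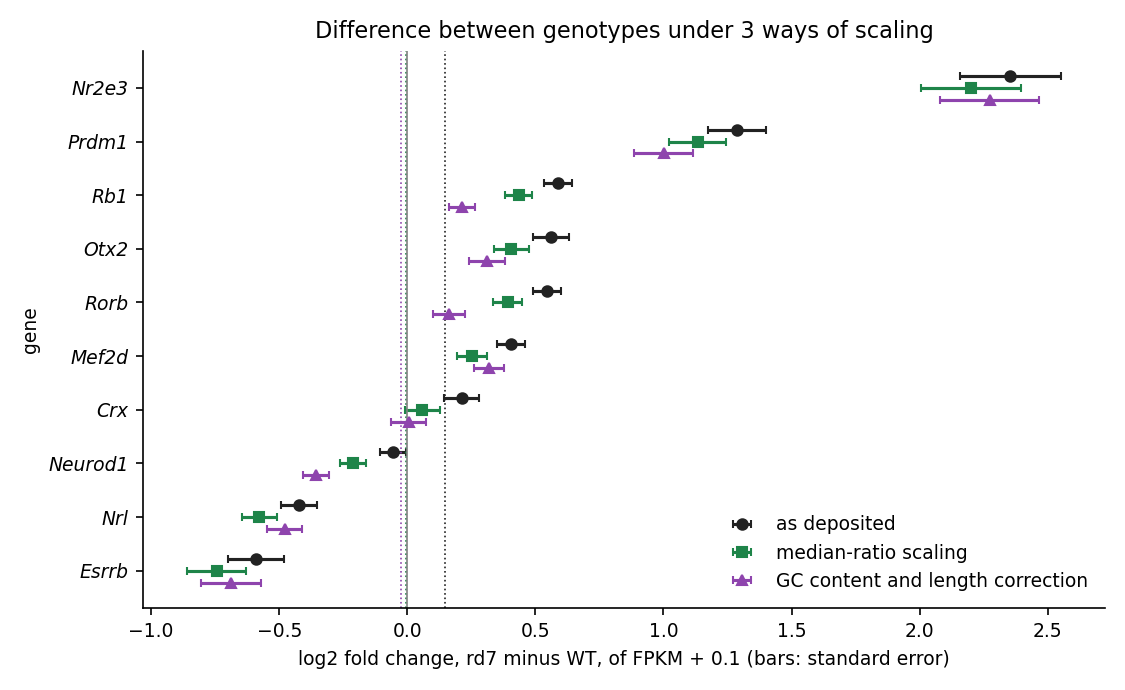
Log2 fold change (*rd7* minus WT, bars show the standard error) of the 10 regulators from the FPKM as deposited (circles), with median-ratio scaling (squares) and corrected for GC content and length (triangles), with dotted lines at the median of all genes for each. *Nr2e3* and *Prdm1* stay above 1.0 and *Nrl* and *Esrrb* below -0.4 in all 3, while *Crx* moves from 0.21 to 0.06 and 0.0064.

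Ratios between genes of the same library are not touched by a scaling factor for that library. A correction for GC content and length differs between genes and can change them. With it the log2 fold change of *Rorb* went from 0.55 to 0.16 and that of *Nrl* from -0.42 to -0.48. The ratios below are of deposited FPKM, without this correction. *Nr2e3* was at 0.347 and 0.350 times the level of *Nrl* in the WT libraries and at 2.82 and 2.03 times in the *rd7* libraries, so that the order of the 2 genes was inverted. Against *Crx*, *Nr2e3* was at 0.950 and 0.999 times in WT and at 5.08 and 3.64 times in *rd7* retinas. The ratio of *Nrl* to *Crx* was 2.74 and 2.85 in WT and 1.80 in each *rd7* library. This ratio was nearly the same within a genotype and did not overlap between genotypes. *Esrrb* to *Crx* dropped from 0.255 and 0.234 to 0.119 and 0.165, and *Rorb* to *Nrl* rose from 0.0230 and 0.0213 to 0.0412 and 0.0458. *Esrrb* to *Nrl* overlapped between genotypes, at 0.0661 and 0.0918 in *rd7* and 0.0931 and 0.0822 in WT retinas. With 2 libraries a genotype the smallest p of an exact permutation test is 0.33, and these ratios are given without a test.

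**Figure D4:**
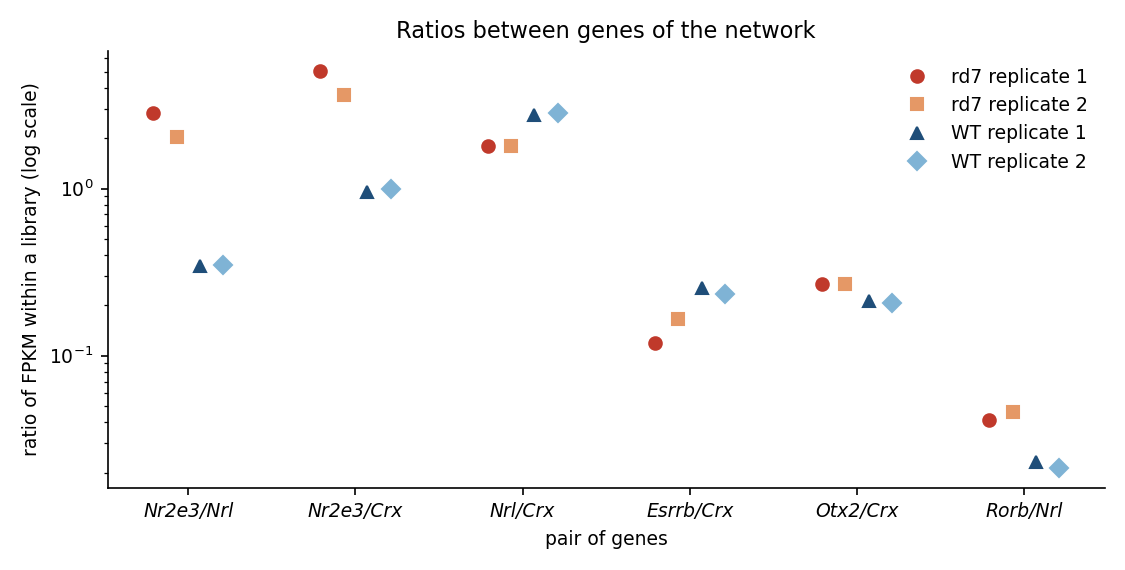
Ratio of FPKM between pairs of regulators within each library (log scale), with circles and squares for *rd7* replicates 1 and 2 and triangles and diamonds for WT replicates 1 and 2. The ratio of *Nr2e3* to *Nrl* stands above 2.0 in both *rd7* libraries and below 0.36 in both WT libraries, and that of *Nrl* to *Crx* is lower in both *rd7* libraries.

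In WT retinas the order of levels was *Nrl*, *Crx*, *Nr2e3*, *Neurod1*, *Esrrb*, *Otx2*, *Mef2d*, *Rorb*, *Rb1* and *Prdm1*. *Crx* and *Nr2e3* differed there by 1.03-fold, about as much as the 2 WT libraries of each gene did (1.03-fold and 1.02-fold), so that these neighbours do not differ beyond their spread. *Esrrb* and *Otx2* followed each other at 1.16-fold, beside 1.12-fold between the WT libraries of *Esrrb*, while every other step was at least 1.34-fold. In *rd7* retinas *Nr2e3* came first at 2.45-fold over *Nrl*, and *Esrrb* stood behind *Otx2* and *Mef2d*, at 1.28-fold below *Mef2d*. *Nr2e3* made up 16.2% and 16.6% of the summed FPKM of the 10 genes in the WT libraries and 57.0% and 47.7% in the *rd7* libraries. The sum of the 9 others was 1990 and 1983 in WT and 1882 and 1739 in *rd7* retinas, of which *Nrl* held 55.8% and 56.7% in WT and 47.0% and 45.1% in *rd7* retinas.

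The 2 *rd7* pools differed more than the WT pools. The log2 difference between *rd7* replicates 1 and 2 was 0.65 for *Nr2e3*, a size reached by 1.94% of all genes tested, whose median was 0.10. For the 9 others it lay between 0.02 and 0.32 in size, with replicate 1 above replicate 2 for *Prdm1*, *Nrl*, *Crx* and *Otx2* and below it for *Esrrb*. In WT retinas *Nr2e3* differed by 0.04 and the 9 others by 0.01 to 0.16. Without *rd7* replicate 1 the log2 fold change of *Nr2e3* was 2.03, and without *rd7* replicate 2 it was 2.68. The 5 genes with the pattern most like that of *Nr2e3*, by the root mean square difference over the 4 libraries of log2 values less their WT mean, were *Lipi* (0.04), *A630089N07Rik* (0.05), *Epha10* (0.09), *Aldoart2* (0.13) and *Ckap2* (0.13). *Lipi*, the gene of a lipase, had an FPKM of 10.6 and 6.90 in *rd7* and 1.51 and 1.55 in WT retinas, and *A630089N07Rik* had 105 and 73.5 against 16.4 and 17.3. *Aldoart2* had 3.89 and 1.96 against 0.519 and 0.481, and *Ckap2* 2.12 and 1.41 against 0.285 and 0.325. These 2 genes passed the filter on low values only through *rd7*. With a pseudocount of 1 the log2 fold changes were 1.34 for *Aldoart2*, 1.07 for *Ckap2*, 1.74 for *Epha10* and 1.92 for *Lipi*. Those of *A630089N07Rik* and *Nr2e3* were 2.32 and 2.35. Likeness over 4 libraries rests on a similar rise and a similar gap between the *rd7* pools.

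The genes this network acts on moved in opposite directions. Of the 15 rod genes listed, 12 were tested, and 8 were lower and 0 higher in *rd7*, beside 8.8% and 37.6% of all genes, with a median log2 fold change of -0.49. *Reep6*, a rod gene of membrane trafficking, had the largest fall, from an FPKM of 431 and 429 to 147 and 160 (log2 fold change -1.49, SE 0.06, adjusted p = 0.00015 from limma). *Slc24a1*, the rod sodium-calcium exchanger, fell by 0.83 on the log2 scale, and *Gnat1*, rod transducin, had 2710 and 3333 in *rd7* against 5154 and 5206 in WT retinas. The call of *Gnat1* (log2 fold change -0.79) was lost after quantile normalization (-0.24) and without either WT library (adjusted p = 0.0667 and 0.0555 from limma). The 4 others tested were not called, at -0.02 to 0.11. *Gnb1* had no successful estimate in *rd7* replicate 1 and was not compared. Without WT replicate 1 or without WT replicate 2, 3 rod genes were called lower in place of 8.

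Of the 12 cone genes listed, all were tested, and 10 were higher and 0 lower, beside 37.6% and 8.8% of all genes, with a median log2 fold change of 1.15. *Gnat2*, cone transducin, had an FPKM of 757 and 884 in *rd7* against 87.8 and 93.4 in WT retinas. *Pde6c* had 308 and 300 against 33.3 and 34.1, and *Pde6h* 1381 and 1515 against 323 and 312, both subunits of the cone phosphodiesterase. In these 3 genes *rd7* replicate 1, the library with the higher *Nr2e3*, was the higher of the pair in 1 and the lower in 2. The other 2 cone genes, *Opn1mw* and *Arr3*, were not called and overlapped between genotypes. *Opn1mw* had an FPKM of 172 and 208 in *rd7* against 207 and 217 in WT retinas (log2 fold change -0.16). *Arr3* had 159 and 197 against 169 and 166 (0.08). The count of cone genes called higher was 9 to 11 under all alternatives tried. In these bulk samples more RNA per cell and more cells of a type cannot be told apart.

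**Figure D5:**
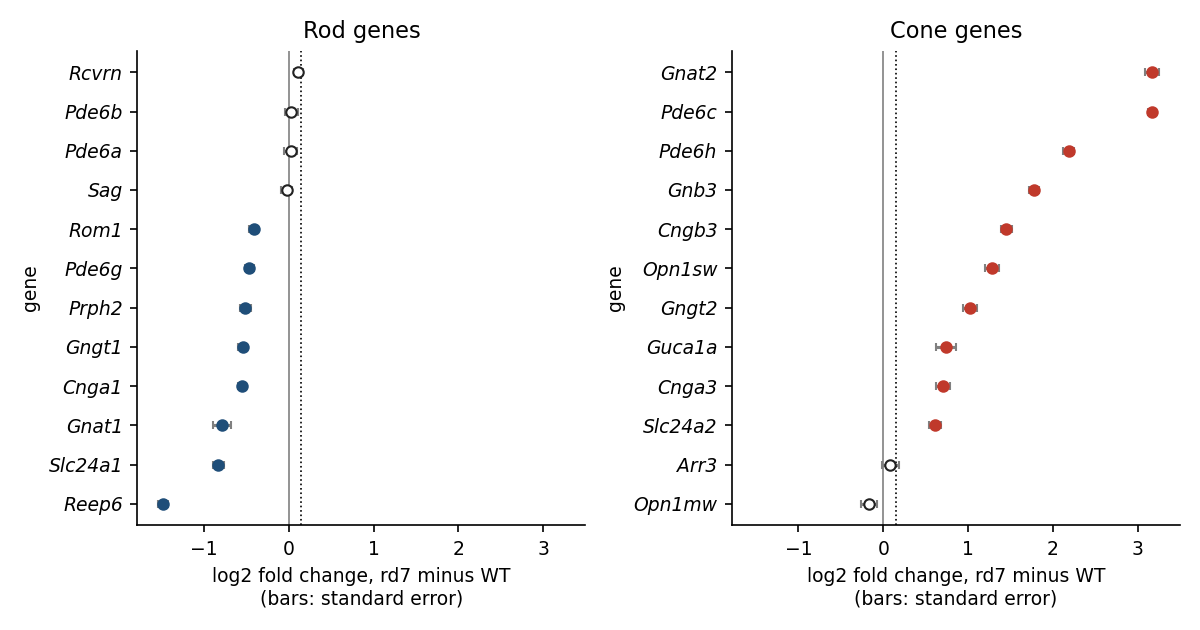
Log2 fold change (*rd7* minus WT, bars show the standard error) of the 12 tested rod genes and the 12 cone genes, with filled points for called genes, open points for genes not called, and a dotted line at the median of all genes, 0.15. The called rod genes lie between -1.49 and -0.42 and the called cone genes between 0.61 and 3.17.

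Of 8 regulators of cone fate, 7 were tested, and 3 were higher and 0 lower, a count near the 37.6% of all genes called higher. Their median log2 fold change was 0.32. *Rxrg*, the gene of a retinoid receptor of cones, had an FPKM of 7.04 and 6.87 in *rd7* against 4.46 and 3.76 in WT retinas (log2 fold change 0.75, SE 0.10, adjusted p = 0.00312 from limma). *Onecut1*, a factor of cone and horizontal cell precursors, had 2.03 and 1.59 against 1.11 and 0.956 (0.75), and was not called after quantile normalization (adjusted p = 0.0563 from limma) or without WT replicate 1 (0.84) or 2 (0.65). With a pseudocount of 1 the value of *Onecut1* was 0.46. *Thrb*, the thyroid hormone receptor of cone opsin patterning, had 18.3 and 19.4 against 14.3 and 15.9, and its log2 fold change of 0.32 turned to -0.0064 with the GC and length correction. The call of *Thrb* was also lost under median-ratio scaling (0.17), after quantile normalization (0.18) and without WT replicate 1 (0.24).

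Of 11 other photoreceptor regulators, 10 were tested, with 3 higher and 0 lower, near or below the shares of all genes (37.6% and 8.8%), and a median of 0.14, close to that of all genes. *Notch1*, the receptor that holds precursors back from the photoreceptor fate, had an FPKM of 5.17 and 7.52 in *rd7* against 3.11 and 3.43 in WT retinas (log2 fold change 0.91, SE 0.18, adjusted p = 0.00985 from limma), a call lost without WT replicate 1 (0.85) or 2 (0.98). *Rora*, a relative of *Rorb*, rose from 22.7 and 22.04 to 31.5 and 33.5 (0.53). *Samd7*, a rod partner of the Polycomb repressors, had 68.4 and 70.3 against 53.5 and 54.1 (0.36). The calls of *Rora* and *Samd7* were lost with the GC and length correction (0.17 and 0.12). Of 13 cofactors of these factors, among them corepressors, deacetylases and acetyltransferases, 1 was higher and 0 lower, below the same shares. That one, *Hdac2*, rose by 0.23 on the log2 scale but was at -0.12 with the same correction. Its call was also lost under median-ratio scaling (0.08), after quantile normalization (0.09) and without either WT library (0.20 and 0.26).

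Of 16 relatives of the 10 regulators, 13 were tested, and 5 were higher and 3 lower, beside 37.6% and 8.8% of all genes, so that the count of higher ones was near that of all genes. Their median was -0.17. *Neurod4*, a bHLH gene related to *Neurod1*, had an FPKM of 71.9 and 62.3 in *rd7* against 33.3 and 34.6 in WT retinas (log2 fold change 0.98, SE 0.08, adjusted p = 0.000969 from limma). *Mef2a* rose by 0.62, *Esrrg* by 0.58 and *Mef2d* itself by 0.41 on the log2 scale. With the GC and length correction the values were 0.60 for *Neurod4*, 0.25 for *Mef2a* and 0.24 for *Esrrg*, all still called. In contrast, *Mef2c* had 3.73 and 7.63 against 12.2 and 12.3 (-1.18, adjusted p = 0.0243 from limma), with the *rd7* pools far apart. The value of *Mef2c* was -0.68 without *rd7* replicate 1 and -1.69 without *rd7* replicate 2, and its call was lost with no filter on low values (adjusted p = 0.0871 from limma) and without WT replicate 1 (-1.19) or 2 (-1.18). *Mef2b* (-0.70) was lower as well, with at most 2.39 in any library, and lost the call without WT replicate 1 (-0.65). *Esrrg* and *Esrrb*, 2 genes of the same receptor family, thus had opposite differences, with FPKM of 27.4 and 28.4 against 18.3 and 19.1 for *Esrrg*.

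Several of the 10 regulators are also known from other retinal cells, whose markers are counted here beside the 37.6% of all genes called higher and the 8.8% called lower. *Otx2* acts in bipolar cells and pigment epithelium. Of 7 bipolar markers, 5 were higher and 0 lower with a median log2 fold change of 0.54, and the summed FPKM of all 7 was 584 to 726 in *rd7* and 490 to 523 in WT retinas. Most of that sum was *Pcp2*, with 402 and 302 in *rd7* against 310 and 280 in WT retinas. *Pcp2* overlapped between genotypes and was not called. Of 7 pigment epithelium markers, 5 were tested and all 5 were higher, with sums of 63.5 to 69.4 in *rd7* and 29.0 to 41.7 in WT retinas. *Best1* and *Mlana* were too low to be tested. *Best1* had an FPKM of 0.110 and 0.0707 in *rd7* against 0.178 and 0.236 in WT retinas, lower in both *rd7* libraries, and *Mlana* overlapped between genotypes. *Neurod1* and *Rorb* are also found in amacrine and horizontal cells, of whose 7 markers 5 were tested and 4 were higher (sums of 206 to 222 in *rd7* and 177 to 183 in WT retinas). Müller cell markers gave 3 higher of 6 (sums of 1986 to 2067 in *rd7* and 1841 to 1907 in WT retinas), ganglion cell markers 1 of 6 (574 to 639 and 588 to 603) and microglia markers 2 of 4 (12.5 to 13.8 and 9.70 to 9.91), with 0 lower in each. With so few markers, the counts of these 3 lists lie near or below the share of all genes. Lens markers gave 0 calls among 4 loci (15.9 to 37.2 and 29.5 to 65.4), and blood markers 3 lower among 4 loci (sums of 76.7 to 161 in *rd7* and 235 to 317 in WT retinas). *Tyrp1*, *Lhx1* and *P2ry12*, all called higher, had WT means of 0.705, 0.846 and 0.796 FPKM. They passed the filter on low values only through *rd7*, which favoured a higher call. *Alas2*, a blood marker called lower, had an *rd7* mean of 0.906 FPKM and passed only through WT. No marker listed was at 0 in all libraries. The part of other cell types in the values of *Otx2*, *Rorb* and *Neurod1* was not tested.

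No motif was found in all 9 regulators that have promoter windows, and the most widespread, TGCTGA, was in windows of 4 of them. Of the 10 regulators, 9 have 14 windows in the RefSeq table. TAATCC was in 2 of the 14 (1 of *Crx* and 1 of *Otx2*), beside 7.06% of all windows. TGCTGA was in 5 of 14 beside 19.5% of all windows, and CAGATG in 2 of 14 beside 17.2%. AAGGTCA and CTATTTATA, which 4.72% and 0.429% of all windows hold, were in none. In the printed windows no match overlapped another. Among the rod genes, 4 of the 9 windows held TAATCC and 0 held AAGTCA, beside 7.06% and 15.1% of all windows. Among the cone genes 2 of 10 held TAATCC and 1 held AAGTCA. A match is a run of letters and not a measured binding site.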

How the data were processed

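RNA-seq of 4 retina libraries was analysed from 1 deposited table. The authors mapped single 50-base reads to mm9 with TopHat 1.4.1 and obtained FPKM for each gene with Cufflinks 1.3.0, each value with a status. The deposited FPKM are divided by transcript length and library size, not by library composition. Of 22095 loci, 262 without a successful status in all 4 libraries were left out. A second deposited table holds the authors' own Cuffdiff comparison (pooled FPKM, fold changes, p-values and q-values) and was not used.

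Columns were matched to samples by title. Genes with a mean FPKM of 1 or more (12655) entered limma 3.58.1 (R 4.3.3) as log2(FPKM + 0.1), with moderated two-sided tests under a variance trend, Benjamini-Hochberg adjustment, an FDR of 5% and no block, and the step was tested on simulated data. The 95% intervals come from the moderated fit. Replicates are separate pools of animals, so p-values rest on the spread between pools. For each gene the moderated test draws that spread partly from the other genes. Depth was estimated from the lowest values of genes with 1 annotated transcript over 800 bases (window of 0.02 to 0.036 FPKM times kb, which keeps the libraries alike by construction). Exonic length, GC content and overlaps came from GENCODE vM1 on the same build as the files, which matched 93.8% of loci. The 10 regulators and all gene lists were chosen with earlier results of these data known. The named genes are the 10 regulators, up to 3 largest rises and 3 largest falls past the FDR in each list, the 5 nearest loci on each side of *Nr2e3*, and the 5 genes most like it. Of the genes this rule names or the lists hold, 2 are not reported here. Promoters came from a RefSeq table of GRCm38.p6, and each member window was located in mm9 by its exact letters. Alternatives were pseudocounts of 1 and 0.01, no filter, a filter at a mean of 5, scaling by median ratios, quantile normalization, a natural spline correction for GC content and exonic length, no variance trend, a replicate block, and leaving out each library. Python 3.11.15 with scipy 1.17.1 was used for the rest.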

Additional observations from a re-analysis of the deposited data

How the results depend on the processing

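*Nr2e3*, *Prdm1*, *Otx2*, *Mef2d* and *Rb1* were called higher under all 13 alternatives. Without one library each, the number of regulators called lower ranged from 0 to 2 and that of rod genes called lower from 3 to 8. *Nrl* and *Esrrb* kept their direction under all 13, with log2 fold changes of *Nrl* from -0.58 to -0.34 and of *Esrrb* from -0.74 to -0.44. Without WT replicate 1, 0 regulators were lower by limma at an FDR of 5%, and 1293 of all genes were higher and 224 lower in place of 4755 and 1114. Without WT replicate 2 these were 2124 and 338. One library then stands for its genotype and is assumed to vary like the others.

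Across all genes, median-ratio scaling gave 2492 higher and 2479 lower, quantile normalization 2350 and 2404, and the GC and length correction 1520 and 1849. The last of these turned *Thrb* (-0.0064), *Hdac2* (-0.12) and *Myo9a* (-0.0921) to the other sign, and the cause was not tested. The number of regulators called higher was 5 with this correction and 6 or 7 otherwise. Over 39 named genes and 499 values, 446 kept direction and side of the threshold, 48 lost the call, 2 gained it (*Neurod1*) and 3 changed sign. The labels do not pair libraries by number, and the deviations of same-numbered libraries correlated at r = -0.0265. With a replicate block, 7 regulators were higher and 2 lower, 8 rod genes lower and 10 cone genes higher, with 4508 and 1091 calls among all genes, and no call of a named gene was lost. Depth limits none of the 10 regulators, as at least 771 estimated reads lie behind each value.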

Other observations

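In GENCODE, exons of 4 of the 10 regulators share bases with exons of other genes. *Nr2e3* shares 1.81% of its exonic bases with *Gm15507* on its own strand. *Gm15507* begins at 59805318, beyond the end of the deposited *Nr2e3* locus at 59797886. *Mef2d* shares 8.8% of its exonic bases with *1700113A16Rik* on the opposite strand. *1700113A16Rik* begins at 87975482, beyond the end of the deposited *Mef2d* locus at 87973089. *Neurod1* shares 7.37% with *Cerkl* on its own strand and 5.64% with *Gm17325* on the opposite strand. *Rb1* shares 8.11% with *Rcbtb2* and 6.78% with *Lpar6*, both on the opposite strand. In the deposited table, *Lpar6*, which lies inside *Rb1*, had an FPKM of 1.09 and 1.19 in *rd7* and 0.639 and 0.820 in WT retinas, under the filter of a mean of 1, beside 8.44 to 13.0 for *Rb1*. For *Neurod1* and *Rb1*, how reads on shared bases were divided is not given in the sources used here.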
